A study of Mus musculus with 4 samples.

Results

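The respiratory chain genes are those that encode the protein subunits of oxidative phosphorylation, in the nucleus and on the mitochondrial genome. They were taken as the protein-coding genes of the deposited table whose symbols start with Ndufa, Ndufb, Ndufc, Ndufs, Ndufv, Uqcr, Cox4 to Cox8, Atp5 or mt-, together with Sdha to Sdhd and Cyc1. This rule found 102 genes among the 13881 genes of the table, of which 12187 are protein-coding. Of these members 89 are nuclear-encoded and 13 are mitochondrially encoded. A further 7 annotated genes match the rule and have no row in the table, among them the tissue-restricted isoforms Cox4i2, Cox6a2, Cox7b2, Cox8b, Cox8c and Ndufa4l2. All 102 members passed the filter on low values (a mean of at least 1 FPKM over the 4 libraries).

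The RNA came from cultured neural progenitors, dividing brain cells that can become neurons or glia, which were isolated from C57bl/6 mouse forebrains at embryonic day 14. The shRybp group was infected with a lentivirus that expresses a short hairpin RNA against Rybp, a partner of Polycomb repressive complex 1 that binds its catalytic subunits. The control group carries the label of an shRNA control, whose vector the sources used here do not give. Both groups grew in proliferation medium with 2% B27 without vitamin A, 20 ng/ml EGF and 20 ng/ml FGF-2, and each had 2 libraries. The labels do not say that the libraries of a group came from separate cultures or embryos, so p-values measure only how far these libraries lie from one another, which could be a technical spread.

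The respiratory chain sits in the inner mitochondrial membrane. Complexes I and II pass electrons from NADH and succinate to ubiquinone, complex III passes them on to cytochrome c, and complex IV gives them to oxygen, while complexes I, III and IV pump the protons that drive ATP synthase, also called complex V. Most subunits are made from nuclear genes and imported, but a small set of membrane-embedded core subunits of complexes I, III, IV and V is transcribed inside the organelle from its own circular genome, as long precursor RNAs from both strands that are then cut apart, so that assembly draws on 2 genomes.

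The libraries held 14355308 and 16400480 counts in shRybp and 17598873 and 15938646 counts in control. Rybp itself had 3.01 and 2.66 FPKM (read counts divided by gene length and library total) in shRybp, against 4.43 and 3.95 FPKM in control, and fell to 65.8% of control (log2 fold change -0.60, SE 0.12, edgeR adjusted p = 0.00175). All 7 progenitor markers were measured, with summed levels of 2470 to 2570 FPKM in shRybp and 2900 to 3170 FPKM in control; 2 of them rose and 3 fell. All 6 astrocyte markers fell, with summed levels of 195 to 209 FPKM in shRybp and 355 to 371 FPKM in control. Of the 6 oligodendrocyte lineage markers 3 fell, with sums of 298 FPKM in both shRybp libraries and 334 to 344 FPKM in control. Of 5 tested neuron markers 1 rose and 2 fell, with sums of 64.1 to 70.8 FPKM in shRybp and 71.9 to 72.1 FPKM in control. The single tested ependymal marker, Foxj1, fell, at 2.78 and 2.99 FPKM in shRybp against 4.22 and 4.13 FPKM in control. Of the 6 microglia markers 2 have a row, at sums of 0.632 to 0.967 FPKM in shRybp and 0.173 to 0.952 FPKM in control, and Cx3cr1, Aif1, C1qa and Tmem119 have none. In bulk RNA, fewer cells of a type and less RNA per cell cannot be told apart. The part of these marker shifts in the results on the respiratory chain was not tested.

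Transcripts from the mitochondrial genome were lower in shRybp cells, while those of the nuclear subunits stayed close to the control level as a group. Of the 13 mitochondrially encoded genes 7 fell, 6 did not pass the test, and 0 rose with edgeR, DESeq2 or limma or at an unadjusted p under 0.05. Their median log2 fold change was -0.39, and -0.18 without control 1. Of the 89 nuclear members 7 rose, 11 fell and 71 did not pass, with a median of -0.05 and a range of -0.46 to 0.31. With 1 library left out the nuclear median ran from -0.083 to -0.041. How the calls depend on single libraries is given below. Over all 12062 genes tested 33.0% passed the same edgeR test at an adjusted p under 0.05, 16.3% upward and 16.7% downward, with a median log2 fold change of 0.00. Thus 53.8% of the mitochondrially encoded members and 20.2% of the nuclear members were called, above and below the share among all genes. The 13 mitochondrially encoded genes are cut from shared precursor RNAs, so they are not independent of one another. Their share cannot be weighed like that of separately transcribed genes. Of the 5109 tested genes with a mean of 10 to 498 FPKM 39.1% were called.

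**Figure D1:**
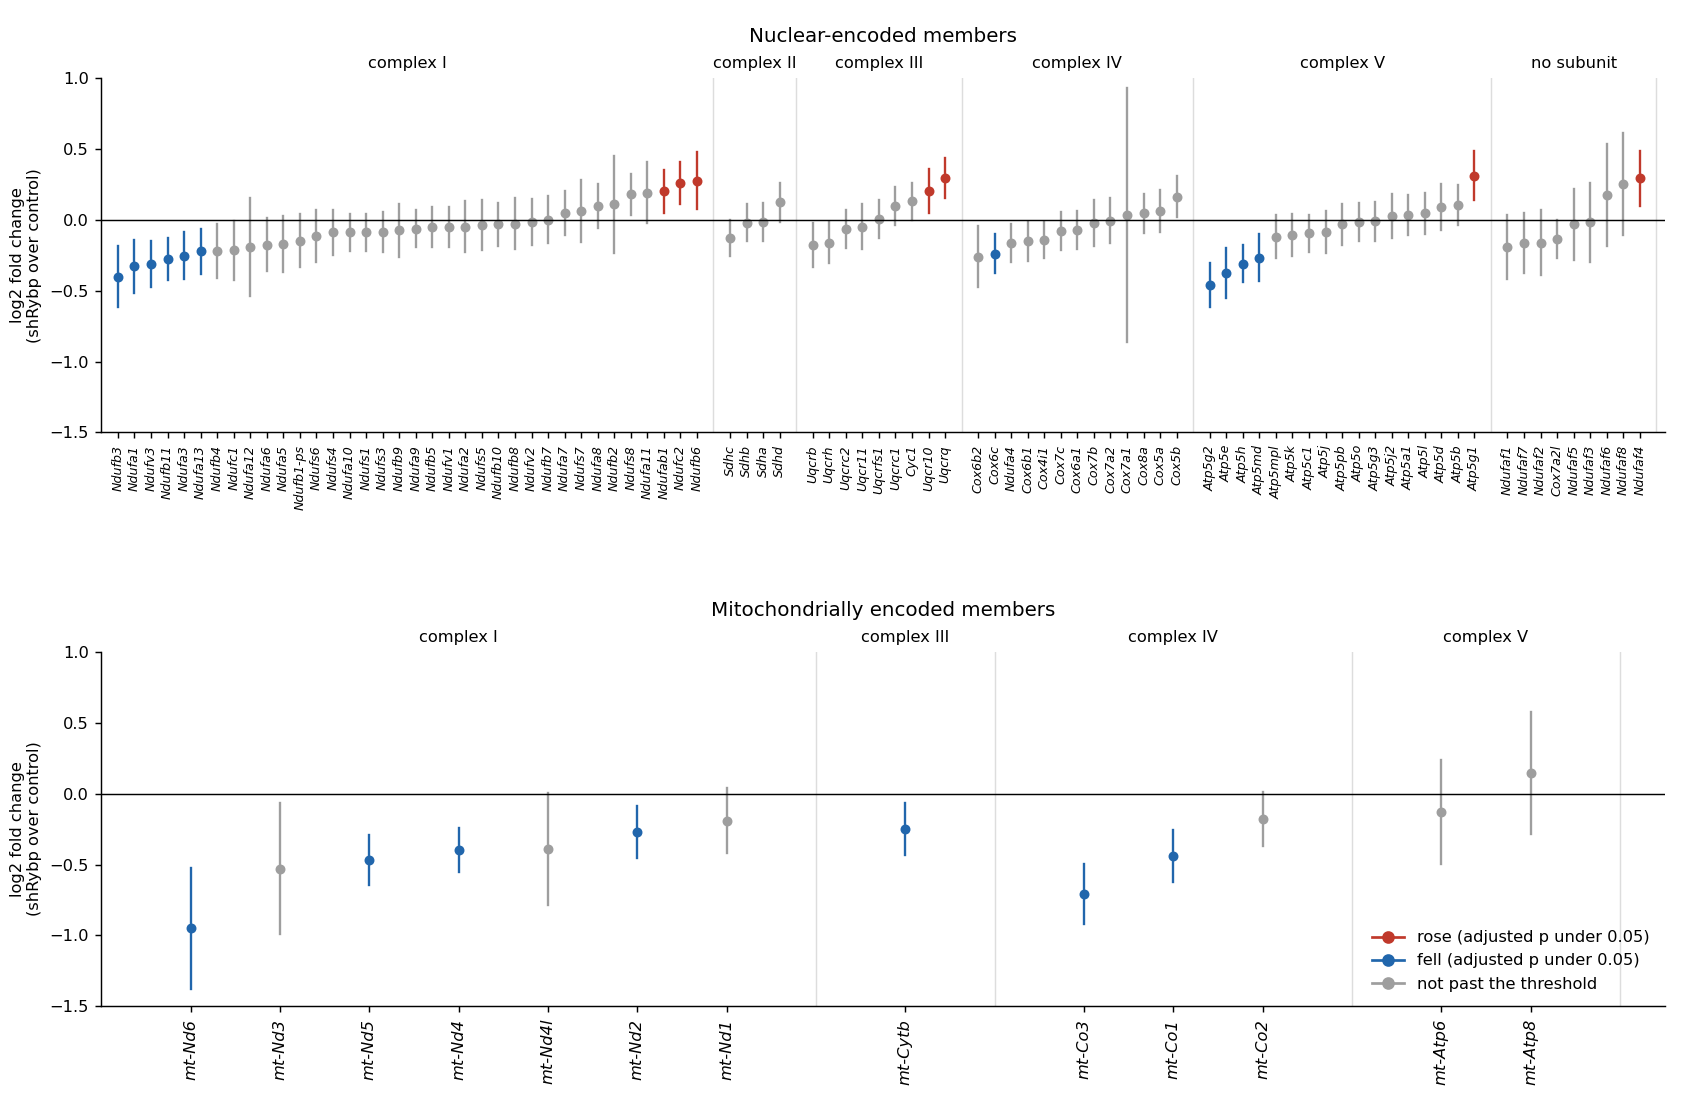
Log2 fold change (y axis, shRybp over control, edgeR) of the members, with 1 nuclear-encoded gene not shown, nuclear-encoded above and mitochondrially encoded below, ordered by complex and then by size. Points are estimates and bars are 95% intervals; 12 of the 13 mitochondrially encoded genes lie below 0, and the nuclear estimates lie between -0.46 and 0.31.

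The direction of the estimates, whether or not a gene passed the test, was negative for 12 of 13 mitochondrially encoded members and for 61 of 89 nuclear members, against 5974 of the 12062 genes tested. With library totals in place of TMM scaling 12 of 13 and 48 of 89 were negative. Of the 13, 10 were negative without control 1 and 7 under quantile normalization. The nuclear changes were small. Called nuclear members had a median absolute log2 fold change of 0.29, against 0.40 among all called genes, and 37.8% of all called genes changed by more than the largest nuclear change. Taken by FPKM, the groups were apart without overlap in 57 of 89 nuclear members and 9 of 13 mitochondrially encoded members, beside 67.5% of all genes tested.

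**Figure D2:**
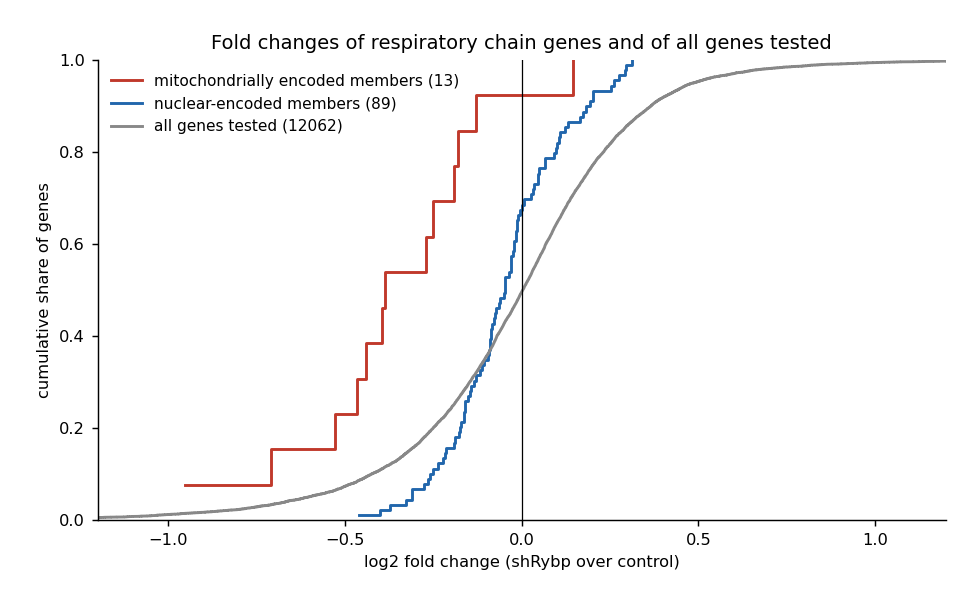
Cumulative share of genes (y axis, 0 to 1) against the log2 fold change (x axis, shRybp over control) for the 13 mitochondrially encoded members, the 89 nuclear members and all 12062 genes tested. The mitochondrial curve lies to the left with a median of -0.39, and the nuclear curve is steeper than that of all genes around a median of -0.05.

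The 13 mitochondrial messenger RNAs together took 4.04% and 3.87% of all counts in the shRybp libraries, against 5.17% and 4.68% in the control libraries. Both shRybp libraries lay below both controls, at means of 3.96% ± 0.13 in shRybp and 4.92% ± 0.35 in control (SD, n = 2 each), a ratio of 0.803. The 89 nuclear members took 1.33% of counts in each shRybp library and 1.33% and 1.31% in the control libraries, so that these groups overlapped. With 2 libraries a group, an exact two-sided permutation test cannot give a p below 0.333, which is its value for the mitochondrial share.

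Set against the summed nuclear subunits of the same complex, the summed mitochondrially encoded RNAs of complexes I, III and IV were lower in shRybp in both libraries. These sums follow their most abundant genes and do not speak for each gene. In complex III mt-Cytb is the only gene. In complex IV mt-Co1 had 9563 and 9445 of the 9749 and 9608 FPKM in shRybp. The ratio of summed FPKM, mitochondrial to nuclear, for complex I was 7.14 and 6.72 in shRybp, against 8.67 and 7.77 in control. For complex III it was 7.98 and 7.82 in shRybp, against 9.73 and 9.01 in control. For complex IV it was 5.52 and 5.501 in shRybp, against 7.25 and 6.87 in control. The ratio in shRybp was thus 0.843 of control for complex I, 0.843 for complex III and 0.781 for complex IV, and no shRybp library reached a control library. For complex V the ratio was 0.0773 and 0.0506 in shRybp, against 0.0720 and 0.0571 in control, with overlapping groups. Both mitochondrial genes of complex V, mt-Atp6 and mt-Atp8, lie in a stretch copied on chromosome 1, which is described below. The size of this ratio is therefore uncertain and cannot be set beside those of the other complexes. The same stretch holds mt-Co2 and mt-Co3 of complex IV, mt-Nd3 and mt-Nd4l of complex I, and parts of mt-Co1 and mt-Nd4. The sizes of the complex I and complex IV ratios are thus uncertain too. Each of the 3 ratios that did not overlap gave an exact two-sided permutation p of 0.333. Any quantity without overlap gives this value here, so the test adds nothing to the lack of overlap. By FPKM, the groups did not overlap in 67.5% of all genes tested.

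**Figure D3:**
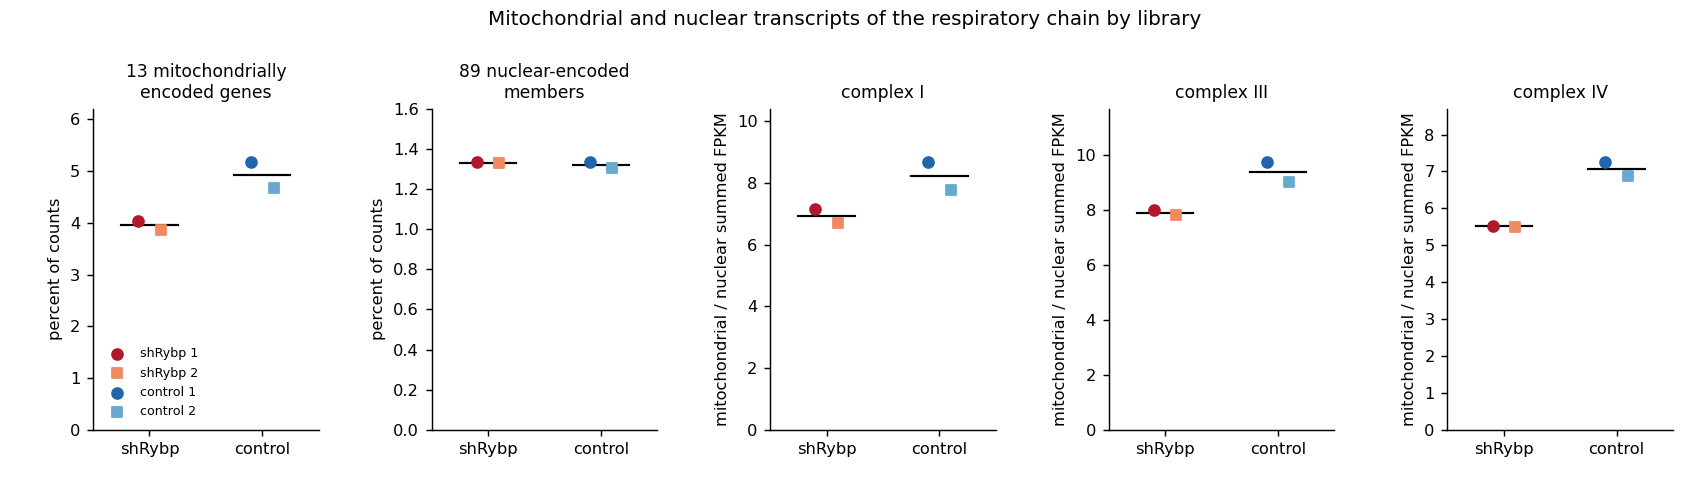
Share of all counts (y axis, percent) taken by the 13 mitochondrially encoded genes and by the 89 nuclear members, and the ratio of mitochondrial to nuclear summed FPKM in complexes I, III and IV, with shRybp left of control. Points are libraries and lines are group means. Both shRybp points lie below both control points in every panel but that of the nuclear members. The total of the 13 genes follows the most abundant of them.

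Complex IV, cytochrome c oxidase, takes its 3 core subunits from the mitochondrial genome and had the most abundant mitochondrial RNA. mt-Co1 (ENSMUSG00000064351, mm10 chrM:5328-6872, plus strand) encodes the catalytic subunit that holds the heme and copper centre where oxygen is reduced. It had 9563 and 9445 FPKM in shRybp, against 13015 and 12131 FPKM in control, and fell (log2 fold change -0.44, SE 0.08, edgeR adjusted p = 0.00167). Both groups stood well apart, and this 1 gene took 1.48% and 1.46% of all counts in shRybp, against 2.01% and 1.88% in control.

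Complex I, the NADH dehydrogenase, takes 7 subunits of its proton-pumping membrane arm from the mitochondrial genome. mt-Nd5 had 2518 and 2228 FPKM in shRybp, against 3247 and 3147 FPKM in control, and fell (log2 fold change -0.47, SE 0.08, edgeR adjusted p = 0.000899). mt-Nd4 had 1698 and 1610 FPKM in shRybp, against 2178 and 2067 FPKM in control, and fell (-0.40, SE 0.07, edgeR adjusted p = 0.00115). For both pumping subunits the shRybp libraries lay below both controls. mt-Nd2, another pumping subunit, had 3626 and 3422 FPKM in shRybp, against 4453 and 3842 FPKM in control, and fell (-0.27, SE 0.09, edgeR adjusted p = 0.0276), though this call did not hold in the 3 limma fits, without shRybp 2 or without control 1, where the estimate was -0.15. mt-Nd1, which helps form the ubiquinone site, had 5431 and 5049 FPKM in shRybp, against 6558 and 5119 FPKM in control. Its groups overlapped and it was not called (-0.19, SE 0.11, edgeR adjusted p = 0.184), but passed without control 2 (-0.37). Quantile normalization sets genes of equal rank to 1 value, and under it mt-Co1, mt-Nd1, mt-Nd4, mt-Nd5 and mt-Cytb come out at a log2 fold change of 0.

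mt-Nd6 is the gene for a membrane-arm subunit that lies on the opposite strand to the other 12. It had 76.8 and 96.7 FPKM in shRybp, against 209 and 118 FPKM in control, and fell (log2 fold change -0.95, SE 0.20, edgeR adjusted p = 0.00272). Its control libraries differed widely, and it still fell but by a smaller estimate of -0.48 when the library farthest from the rest, control 1, was left out. Its last 14 annotated bases overlap mt-Nd5, and the sources used here do not say whether libraries kept the strand, so reads of the opposite strand cannot be told apart from its own. mt-Cytb, the cytochrome b of complex III and its single mitochondrial subunit, had 8240 and 7961 FPKM in shRybp, against 9900 and 8912 FPKM in control. It fell (-0.25, SE 0.08, edgeR adjusted p = 0.0363), a call lost under 7 of 15 alternatives: without control 1, shRybp 1 or shRybp 2, with library totals in place of TMM, and in the 3 limma fits.

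The mitochondrial genes in the middle of the genome, from mt-Co2 to mt-Nd4l, were measured at far lower FPKM levels than the other mitochondrial genes except mt-Nd6. A stretch of chromosome 1 (mm10 chr1:24611535-24616197, minus strand) carries 7 annotated pseudogenes that match mt-Co1, mt-Co2, mt-Atp6, mt-Co3, mt-Nd3, mt-Nd4l and mt-Nd4 at 99.7% identity or more over at least 100 bases. mt-Co2, mt-Atp6, mt-Co3, mt-Nd3 and mt-Nd4l match over nearly their whole length, and mt-Atp8 lies between mt-Co2 and mt-Atp6 with no annotated copy of its own. mt-Nd4 matches over 63.6% of its length and mt-Co1 over 31.3%. How reads that match both places were counted is not stated in the sources used here, so the levels of these genes and their copies are uncertain. The first 60 bases of mt-Co3 (chrM:8607-8666) and of its chromosome 1 copy Gm28437 (chr1:24613912-24613971), and of mt-Nd3 (chrM:9459-9518) and its copy Gm28438 (chr1:24613060-24613119), are shown because a read from either place carries the same letters but for the base in capitals, T3C counted from 1 at the start of the gene; all are mm10.
mt-Co3: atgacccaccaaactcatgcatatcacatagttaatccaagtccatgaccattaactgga
Gm28437: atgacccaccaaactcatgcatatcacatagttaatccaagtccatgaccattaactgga
mt-Nd3: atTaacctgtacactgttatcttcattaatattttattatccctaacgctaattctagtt
Gm28438: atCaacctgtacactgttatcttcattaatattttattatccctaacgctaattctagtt

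Among the 6 genes of this stretch mt-Co3 was the one that fell. mt-Co3, the third core subunit of cytochrome c oxidase, had 41.3 and 41.8 FPKM in shRybp, against 60.3 and 72.4 FPKM in control (log2 fold change -0.71, SE 0.10, edgeR adjusted p = 0.000161). With the counts of Gm28437 added to its own it had 836 and 1200 counts in shRybp, against 1452 and 1420 counts in control, and the estimate was -0.42 (SE 0.09, edgeR adjusted p = 0.00419). Both ways the shRybp libraries lay below the controls. mt-Nd4l, a small membrane-arm subunit of complex I, had 17.8 and 18.6 FPKM in shRybp, against 26.2 and 20.2 FPKM in control, and did not pass alone (-0.39, edgeR adjusted p = 0.123) unless control 2 was left out (-0.57). Summed with its copy Gm10222 it had 126 and 175 counts in shRybp, against 309 and 246 counts in control, and passed (-0.80, SE 0.14, edgeR adjusted p = 0.000644). The 2 placements of the same letters thus give different sizes for mt-Co3 and a different call for mt-Nd4l. The sums were an alternative added after the values were seen.

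The other 4 genes of this stretch did not pass the edgeR test on all libraries. mt-Co2, which binds cytochrome c, had 144 and 121 FPKM in shRybp, against 153 and 140 FPKM in control (log2 fold change -0.18, edgeR adjusted p = 0.132). It ranged from -0.31 to -0.056 with 1 library left out, passing without control 2 or shRybp 1, and was at -0.31 when summed with its copy Gm28661 (edgeR adjusted p = 0.0853). mt-Nd3, a small complex I subunit, had 7.79 and 8.22 FPKM in shRybp, against 11.6 and 10.98 FPKM in control, from 39 and 47 counts in shRybp and 71 and 61 in control (-0.53, edgeR adjusted p = 0.0755). mt-Nd3 was lower in both shRybp libraries and passed in the 3 limma fits, and mt-Co2 overlapped. mt-Atp6, the proton channel subunit of ATP synthase, had 111 and 70.8 FPKM in shRybp, against 109 and 83.8 FPKM in control (-0.13, edgeR adjusted p = 0.594). mt-Atp8, a small ATP synthase subunit, had 42.6 and 29.5 FPKM in shRybp, against 34.5 and 28.5 FPKM in control (0.15, edgeR adjusted p = 0.609). Both overlapped between groups, and their estimates changed sign when single libraries were left out; mt-Atp6 passed without shRybp 1 (-0.49). mt-Atp8 and mt-Atp6 are read from 1 RNA and share 43 bases, which counting by gene cannot assign to either; they are shown in capitals within the mm10 stretch chrM:7915-7981.
mt-Atp8/mt-Atp6: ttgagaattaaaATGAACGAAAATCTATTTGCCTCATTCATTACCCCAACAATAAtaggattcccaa

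**Figure D4:**
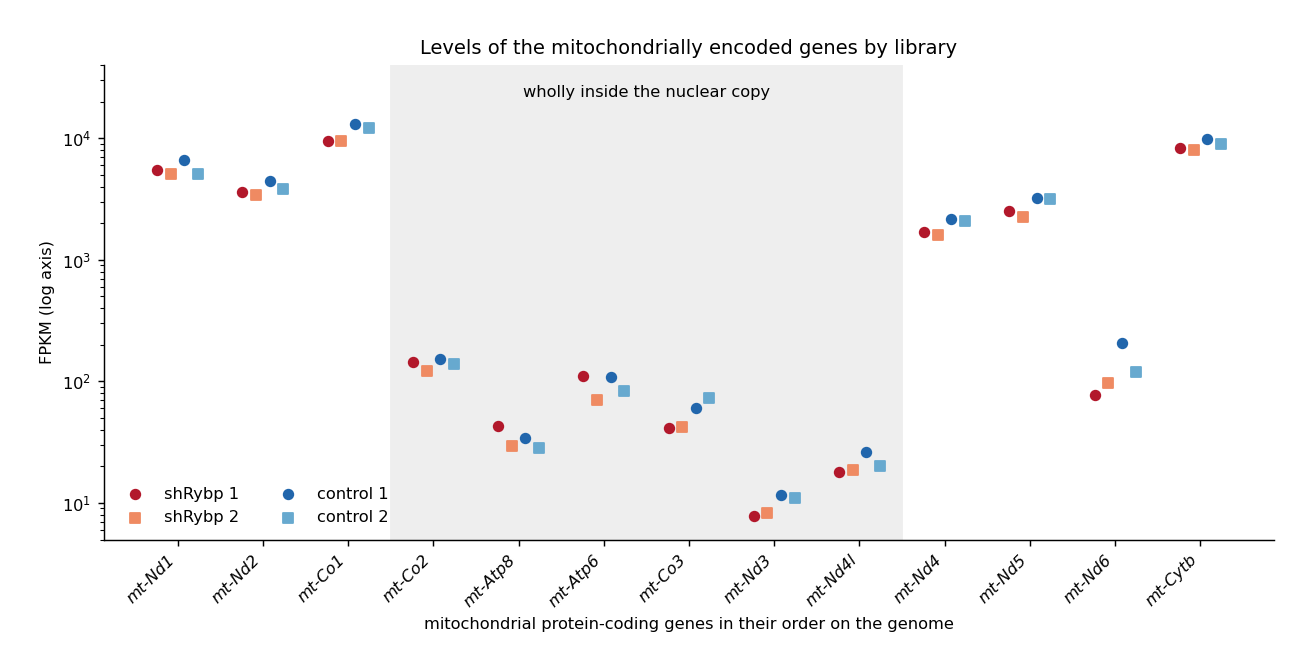
FPKM (y axis, log scale) of the 13 mitochondrially encoded genes in each library, in their order along the mitochondrial genome, with shRybp left of control for each gene. The grey area marks the 6 genes that lie wholly inside the stretch copied on chromosome 1, which sit between 7.79 and 153 FPKM; mt-Co1 and mt-Nd4 are partly covered by it.

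Of the 7 mitochondrially encoded genes not wholly inside this stretch 6 fell, with a median log2 fold change of -0.40. Among these 7, mt-Co1 and mt-Nd4 are partly copied. Of the 6 genes wholly inside it 1 fell, with a median of -0.28, on counts as low as 39 for mt-Nd3 in shRybp 1. Leaving mt-Nd6 aside, the 6 most abundant genes mt-Nd1, mt-Nd2, mt-Co1, mt-Nd4, mt-Nd5 and mt-Cytb ranged from -0.47 to -0.19, a narrower band than the -0.71 to 0.15 inside the stretch. The mitochondrial ribosomal RNAs, mt-Rnr1 and mt-Rnr2, come from the same genome and are no members. They took 0.0467% and 0.0493% of counts in shRybp, against 0.0529% and 0.0461% in control. Neither was called, with log2 fold changes of -0.06 for mt-Rnr1 (edgeR adjusted p = 0.596) and -0.09 for mt-Rnr2 (edgeR adjusted p = 0.439). Their levels were far below that of mt-Co1, with mt-Rnr2 at 214 and 217 FPKM in shRybp and 245 and 202 FPKM in control. Whether library preparation removed ribosomal RNA was not tested. These values may therefore not measure its level in the cells.

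The nuclear genes of complex I held the most members and moved in both directions. Of 37 subunits 3 rose, 6 fell and 28 did not pass, with a median log2 fold change of -0.07. The 7 core subunits of the peripheral arm, among them those that carry the flavin and iron-sulphur centres, had 0 calls by edgeR and DESeq2 and a median of -0.05. Nearest to the threshold among them was Ndufs8, which had 80.4 and 76.6 FPKM in shRybp, against 67.97 and 66.98 FPKM in control (0.18, edgeR adjusted p = 0.0540); it alone passed at an unadjusted p under 0.05, and limma called it. All 9 calls were among the 30 accessory subunits, which surround the core. The share called among accessory subunits was still below the 33.0% called among all genes tested. Whether core and accessory subunits differ was not tested, and the 7 core genes are too few to show it.

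The falls were in small accessory subunits, most of them in the membrane arm. Ndufb3 (mm10 chr1:58586384-58595964, plus strand) had 63.2 and 60.4 FPKM in shRybp, against 87.0 and 71.8 FPKM in control (log2 fold change -0.40, SE 0.10, edgeR adjusted p = 0.0079). Ndufa1 had 66.9 and 65.8 FPKM in shRybp, against 83.0 and 79.2 FPKM in control (-0.33, SE 0.09, edgeR adjusted p = 0.0116). Both calls were lost without control 1, where Ndufb3 was at -0.25, and Ndufa1 also missed under DESeq2. Ndufb11 had 91.3 and 86.7 FPKM in shRybp, against 105 and 105 FPKM in control (-0.28, SE 0.07, edgeR adjusted p = 0.00783). Ndufv3, an accessory subunit at the NADH-oxidizing tip of the peripheral arm, had 24.4 and 22.0 FPKM in shRybp, against 28.5 and 27.4 FPKM in control (-0.31, SE 0.08, edgeR adjusted p = 0.00753). Both calls were lost without shRybp 2. Ndufa3 had 61.4 and 57.4 FPKM in shRybp, against 67.5 and 70.3 FPKM in control (-0.25, SE 0.08, edgeR adjusted p = 0.0214). Ndufa13 also fell (-0.22, edgeR adjusted p = 0.0311). In each of these 6 genes the groups did not overlap, and the last 2 calls were lost without control 2, without shRybp 2 or under DESeq2. The Ndufa13 call was also lost with library totals and with limma on log2(FPKM + 1) or log2(FPKM + 0.1).

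The rises in complex I were Ndufc2, Ndufb6 and Ndufab1. Ndufc2, a membrane-arm subunit and the most abundant nuclear complex I transcript, had 203 and 191 FPKM in shRybp, against 166 and 155 FPKM in control (log2 fold change 0.26, SE 0.07, edgeR adjusted p = 0.0103). Ndufb6, a membrane-arm subunit, had 63.4 and 61.3 FPKM in shRybp, against 53.4 and 46.9 FPKM in control (0.28, SE 0.09, edgeR adjusted p = 0.0374). Ndufab1, the mitochondrial acyl carrier protein, had 10.9 and 11.1 FPKM in shRybp, against 9.32 and 9.31 FPKM in control (0.20, SE 0.07, edgeR adjusted p = 0.0435). Groups did not overlap in any of the 3. The calls were lost when 1 library was left out, for Ndufc2 without control 2 or shRybp 1, for Ndufb6 without control 2, shRybp 1 or shRybp 2, and for Ndufab1 without any 1 of the 4 libraries. Ndufb6 was as low as 0.18 with 1 library left out. DESeq2 did not call Ndufb6 or Ndufab1, and limma after quantile normalization did not call Ndufab1.

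Complex II, succinate dehydrogenase, is wholly nuclear-encoded and also works in the citric acid cycle. With edgeR 0 of its 4 genes passed the adjusted test and 1, Sdhc, had an unadjusted p under 0.05, while DESeq2 and limma called 0. Sdha, its flavoprotein, had 129 and 132 FPKM in shRybp, against 132 and 125 FPKM in control (log2 fold change -0.01, edgeR adjusted p = 0.894). Sdhb, the iron-sulphur subunit, was at -0.02. The membrane anchors Sdhc and Sdhd were at -0.13 and 0.12, and their groups did not overlap (edgeR adjusted p = 0.108 and 0.152).

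In complex III 2 small subunits of 9 rose and 0 fell with edgeR, DESeq2 or limma, with a median log2 fold change of 0.01; Uqcrh and Uqcrb were lower at an unadjusted edgeR p under 0.05. Uqcrq (mm10 chr11:53427922-53430831, minus strand), which packs against cytochrome b, had 54.0 and 54.2 FPKM in shRybp, against 42.2 and 43.8 FPKM in control (0.30, SE 0.07, edgeR adjusted p = 0.00444). Both groups were tight and apart, and Uqcrq passed under every alternative run. Uqcr10 had 178 and 176 FPKM in shRybp, against 157 and 143 FPKM in control (0.20, SE 0.07, edgeR adjusted p = 0.0457), and it did not pass without control 2, shRybp 1 or shRybp 2 (as low as 0.12), under DESeq2, or when scaled without mitochondrial genes. Uqcrh, the hinge protein near cytochrome c1 and the most abundant of the complex, had 234 and 213 FPKM in shRybp, against 252 and 236 FPKM in control (-0.16, edgeR adjusted p = 0.0895). The Rieske iron-sulphur protein Uqcrfs1 was at 0.01 and cytochrome c1 (Cyc1) at 0.13, and neither passed.

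In complex IV 1 of 13 nuclear subunits fell and 0 rose with edgeR or DESeq2, with a median log2 fold change of -0.07; Cox5b was higher at an unadjusted edgeR p under 0.05 and was called by limma. Cox6c had 34.2 and 33.2 FPKM in shRybp, against 39.4 and 38.1 FPKM in control (-0.24, SE 0.06, edgeR adjusted p = 0.0114), a call lost without control 1 or shRybp 2. The most abundant subunit, Cox6b1, had 434 and 414 FPKM in shRybp, against 471 and 448 FPKM in control (-0.15, edgeR adjusted p = 0.0804). Its groups did not overlap although it missed the threshold. Its isoform Cox6b2, known from testis, had 15.6 and 15.7 FPKM in shRybp, against 17.6 and 19.0 FPKM in control (-0.26, edgeR adjusted p = 0.0652). The heart and muscle isoform Cox7a1 was near the detection filter, at 1.56 and 2.05 FPKM in shRybp, against 1.27 and 2.22 FPKM in control, and the widely expressed Cox7a2 was at 107 and 95.6 FPKM in shRybp, against 100.1 and 98.4 FPKM in control. Both overlapped, with estimates of 0.04 and -0.00. The other single isoforms measured were Cox4i1 at -0.14, Cox6a1 at -0.07, Cox7b at -0.02, Cox8a at 0.05 and Ndufa4, once counted with complex I and now placed here, at -0.16, none of which passed.

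Complex V, the ATP synthase, held the single largest nuclear fall and the single largest nuclear rise. Of 17 subunits 1 rose, 4 fell and 12 did not pass, with a median log2 fold change of -0.03. The alpha subunit Atp5a1, part of the catalytic head and the most abundant nuclear member, had 466 and 480 FPKM in shRybp, against 454 and 447 FPKM in control (0.03, edgeR adjusted p = 0.729). The catalytic beta subunit Atp5b had 447 and 449 FPKM in shRybp, against 405 and 407 FPKM in control (0.11, edgeR adjusted p = 0.240). For both the shRybp libraries were slightly above the controls without passing the test.

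The genes Atp5g1, Atp5g2 and Atp5g3 encode the same mature c subunit, the proton-carrying rotor ring, with different import peptides, and they moved apart. Atp5g2 (mm10 chr15:102662864-102672352, minus strand) had 67.2 and 64.2 FPKM in shRybp, against 82.4 and 94.1 FPKM in control, and fell (log2 fold change -0.46, SE 0.07, edgeR adjusted p = 0.000413). Atp5g1 (mm10 chr11:96068852-96075670, minus strand) had 18.7 and 20.6 FPKM in shRybp, against 14.5 and 16.4 FPKM in control, and rose (0.31, SE 0.08, edgeR adjusted p = 0.00873). Atp5g3, the most abundant, had 124 and 125 FPKM in shRybp, against 128 and 117 FPKM in control, with overlapping groups (-0.01, edgeR adjusted p = 0.914). The summed level was 210.1 and 210.3 FPKM in shRybp, against 224.7 and 228.0 FPKM in control. Within this sum Atp5g2 made up 32.0% and 30.6% in shRybp, against 36.7% and 41.3% in control, and Atp5g1 made up 8.92% and 9.79% in shRybp, against 6.45% and 7.21% in control. The Atp5g2 call held under every alternative run, whereas that of Atp5g1 was lost without control 1 or shRybp 2. Both genes have a near-identical pseudogene in the table, Gm10039 for Atp5g1 over 8.7% of its transcript and Gm10175 for Atp5g2 over 16.9%, with 382 and 341 counts in shRybp against 307 and 329 in control for Gm10039, and 16 and 34 against 46 and 43 for Gm10175.

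**Figure D5:**
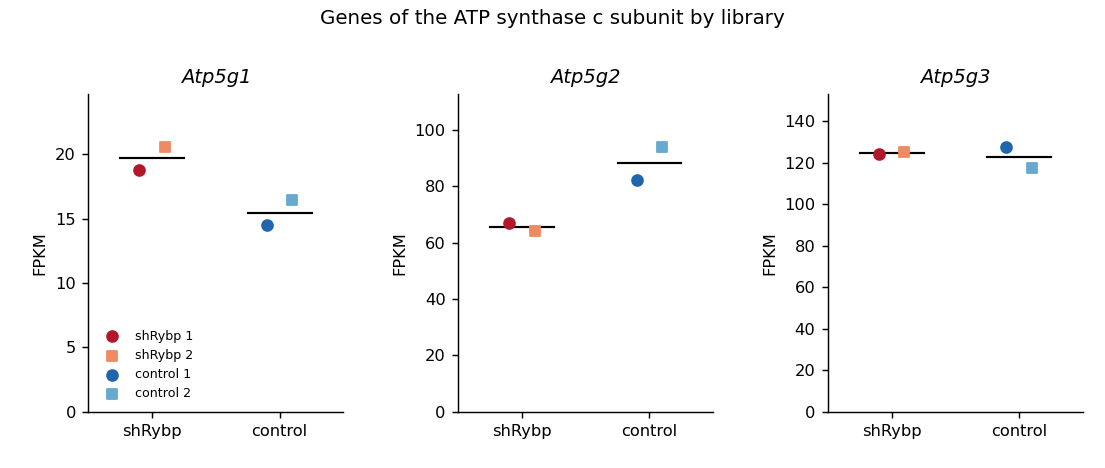
FPKM (y axis, from 0) of Atp5g1, Atp5g2 and Atp5g3 in each library, with shRybp left of control. Points are libraries and lines are group means; Atp5g1 is higher in both shRybp libraries, Atp5g2 is lower in both, and Atp5g3 overlaps.

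The promoters of Atp5g2 and Atp5g1 are shown because these genes for the same mature protein moved in opposite directions. They run from 250 bases before to 50 bases after the RefSeq start (GRCm38.p6, Atp5g2 chr15:102670998-102671297 and Atp5g1 chr11:96075582-96075881, both minus strand), and capitals mark the motif letters that were found. The letters searched on both strands were GCATGCGC for nuclear respiratory factor 1 (NRF1), CCGGAAG for ETS factors such as GABP, AAGATGGC for YY1, GGGCGG for Sp1 and TGACGTCA for CREB. The Atp5g2 window holds the NRF1 letters from base 209 on one strand and from base 211 on the other, overlapping, and the Sp1 letters from base 247, which overlap neither. The windows of Atp5g1 and Atp5g3 hold none of them. As annotated in GENCODE, the Atp5g2 gene begins at base 102672352, outside its window. The Atp5g1 gene begins at base 96075670, inside its window. The windows of these genes may thus not be like regions.
Atp5g2: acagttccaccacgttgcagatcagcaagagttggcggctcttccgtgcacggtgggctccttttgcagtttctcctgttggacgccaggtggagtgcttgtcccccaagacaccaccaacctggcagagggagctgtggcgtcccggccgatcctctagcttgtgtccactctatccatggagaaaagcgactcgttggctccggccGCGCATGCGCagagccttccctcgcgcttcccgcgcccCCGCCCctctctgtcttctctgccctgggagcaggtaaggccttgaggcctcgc
Atp5g1: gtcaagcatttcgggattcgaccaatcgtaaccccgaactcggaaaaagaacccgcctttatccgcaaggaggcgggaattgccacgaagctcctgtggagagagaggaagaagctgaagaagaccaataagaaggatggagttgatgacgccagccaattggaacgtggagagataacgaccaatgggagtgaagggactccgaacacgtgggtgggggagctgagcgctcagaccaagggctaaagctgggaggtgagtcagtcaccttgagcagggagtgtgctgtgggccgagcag

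The other falls in ATP synthase were in its stalks and its membrane part. Atp5e (mm10 chr2:174461072-174464105, minus strand), the epsilon subunit of the central stalk, had 29.7 and 27.9 FPKM in shRybp, against 37.6 and 35.2 FPKM in control (log2 fold change -0.37, SE 0.08, edgeR adjusted p = 0.00373). Atp5h (mm10 chr11:115415689-115419962, minus strand), the d subunit of the peripheral stalk, had 104 and 101 FPKM in shRybp, against 125 and 123 FPKM in control (-0.31, SE 0.06, edgeR adjusted p = 0.00188). Both passed under every alternative run, with no overlap between groups. Atp5md, a small membrane subunit, had 28.7 and 26.4 FPKM in shRybp, against 33.4 and 31.1 FPKM in control (-0.27, SE 0.08, edgeR adjusted p = 0.0168), a call lost without control 1 or shRybp 2 and with limma on log2(FPKM + 1) or log2(FPKM + 0.1). Atp5h and Atp5md also have near-identical pseudogenes in the table, and Gm14539, that of Atp5md, fell with it (-0.51, edgeR adjusted p = 0.00976). Of the 18 called nuclear members of all complexes, 5 have a near-identical copy in the table, Ndufab1 among them. Exon bases are shared with another gene in 8, among them Ndufa13 and Cox6c. Reads from these places could not be told apart from those of the members.

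The remaining 9 nuclear members matched the rule by name but are no subunits: 8 Ndufaf genes, which help build complex I, and Cox7a2l, which joins complexes III and IV into supercomplexes. Ndufaf4 rose, with 11.8 and 11.4 FPKM in shRybp, against 9.68 and 8.73 FPKM in control (log2 fold change 0.29, SE 0.09, edgeR adjusted p = 0.0235), a call lost without control 2 or shRybp 1 and under DESeq2. Cox7a2l had 109 and 102 FPKM in shRybp, against 111 and 115 FPKM in control (-0.13, edgeR adjusted p = 0.123).

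Over the nuclear members with a RefSeq promoter, 74 of 89, the NRF1 letters were found in 12 (16.2%), against 573 of 8637 tested protein-coding genes with a promoter (6.63%). The YY1 letters were found in 11 (14.9%), against 5.77%, and the ETS letters in 19 (25.7%), against 21.7%. The CREB letters were found in 4 (5.41%), against 3.86%, and the Sp1 letters in 34 (45.9%), against 72.3%. Of the 6 members that rose and have a promoter 1 held the NRF1 letters, and of the 10 that fell 1 did. Members without a promoter entry included Ndufs1, Sdhc, Ndufaf6, Uqcrc2, Cox4i1, Uqcrq, Uqcrb, Ndufb1-ps, Atp5mpl, Cox6c, Ndufb9, Cyc1, Ndufa2 and Atp5a1.

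Genes that maintain and express the mitochondrial genome moved little. Of 33 tested 3 rose (Tbrg4 at 0.38, Rnaseh1 at 0.35 and Fastkd3 at 0.33, on the log2 scale), 2 fell (the mitochondrial DNA polymerase Polg at -0.39 and Hsd17b10 at -0.28), and the median was 0.02. Tfam, which packages mitochondrial DNA and starts its transcription, was at 0.01 (edgeR adjusted p = 0.944), and the mitochondrial RNA polymerase Polrmt was at 0.28 (edgeR adjusted p = 0.0746). Lrpprc, which with Slirp stabilizes mitochondrial messenger RNAs, was at -0.05 (edgeR adjusted p = 0.621). Of 12 tested regulators of mitochondrial biogenesis 5 rose (Pprc1 at 0.41, Nfe2l2 at 0.33, Gabpb1 at 0.25, Nrf1 at 0.24 and Myc at 0.18), 1 fell (Ppargc1a at -0.32), and the median was 0.13. Nrf1 encodes a factor that binds promoters of respiratory chain genes, and Gabpb1 encodes a subunit of another such factor, GABP. The DNA-binding subunit of GABP is encoded by Gabpa, which was not called (0.05, edgeR adjusted p = 0.648). Ppargc1a and Pprc1 encode coactivators of these factors.

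Of 44 tested assembly factors 3 rose (Cox10 at 0.37, Sdhaf1 at 0.30 and Ndufaf4) and 0 fell with edgeR, DESeq2 or limma, with 1 lower at an unadjusted p under 0.05. Of 18 citric acid cycle genes, including those of pyruvate dehydrogenase, 3 fell (among them Pdha1 at -0.22 and Sucla2 at -0.20) and 0 rose with any of these tools, with 3 higher at an unadjusted p under 0.05. Of 18 tested electron carriers and genes of their supply 2 rose (Coq7, of ubiquinone synthesis, at 0.29 and Cycs, cytochrome c, at 0.20) and 3 fell (Etfdh at -0.33, Coq9 at -0.23 and Etfa at -0.19). Of 16 markers of mitochondrial mass 3 rose (the import proteins Tomm40 at 0.36, Timm23 at 0.34 and Hspa9 at 0.28) and 1 fell (Mfn1, of membrane fusion, at -0.31), with a median of 0.07. Lists of this kind stand beside the 33.0% called among all genes tested.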

How the data were processed

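The authors deposited unnormalized read counts for each gene in each library, and beside them FPKM values, which equal the deposited counts scaled by gene length and library (largest relative difference 3.6e-08). Per the submitters' processing notes the build is mm10. The sources used here name no aligner or counting program. Every gene of the table has at least 40 counts in all. Groups were compared with edgeR 4.0.16 (R 4.3.3, TMM scaling, two-sided quasi-likelihood test, Benjamini-Hochberg adjustment) on the counts of genes with a mean of at least 1 FPKM, and the fit was tested on simulated data. There it found 22 of 67 genes changed 1.25-fold and 52 of 67 changed 1.5-fold. A member that did not pass is therefore not shown to be unchanged. The simulation left 11862 of 12062 genes unchanged, whereas 33.0% of genes were called in the data. The shares found there may thus differ from those in the data. limma 3.58.1 on log2(FPKM + 1) and DESeq2 1.42.0 were alternatives, with other scalings, filters and each library left out. Replicates differed by more than counting noise (chi-square per degree of freedom 4.37 in shRybp and 5.19 in control). Copies were sought with BLAST 2.17.0 (at least 98% identity over 100 bases) among GENCODE M21 transcripts, and promoters came from RefSeq.

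Members and lists were chosen with earlier results of these data known. Values are given for every mitochondrially encoded member, for up to 5 nuclear subunits per complex and direction with the smallest p, for the most abundant nuclear subunit of each complex, for isoform genes and for other members that passed. Ndufa13, Ndufs8, Atp5b, Uqcrfs1 and Cyc1 were added after their values were seen, as were the pseudogenes. Single values of some genes are not reported here, though counts and medians include them.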

Additional observations from a re-analysis of the deposited data

How the results depend on the processing

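Of the 7 mitochondrial falls, 5 held whenever 1 library was left out (mt-Co1, mt-Co3, mt-Nd4, mt-Nd5 and mt-Nd6), and mt-Co3 held under every alternative; of 18 nuclear calls 4 did (Atp5g2, Atp5e, Atp5h and Uqcrq). mt-Nd6 missed the threshold under DESeq2 (adjusted p = 0.0995). With 2 libraries a group the sizes rest on few values. When 1 library was left out, the genes that rose among all tested numbered 1296 to 1640, nuclear members that rose 2 to 5 and that fell 5 to 12, and mitochondrially encoded members that fell 5 to 10. Their medians then ran from -0.083 to -0.041 (nuclear) and from -0.44 to -0.18 (mitochondrial). DESeq2 called 3 nuclear rises and 8 falls, 11 of them calls of the edgeR fit, beside 23.8% of all genes, and members with neither a near-identical copy nor an exon overlap gave 4 rises and 4 falls, a subset chosen after the data were seen that holds fewer genes (47). With library totals the nuclear median was -0.0122, and with limma on log2(FPKM + 1) or log2(FPKM + 0.1) -0.0135 and -0.0138. Quantile normalization, which sets equally ranked genes equal in every library, gave 3 mitochondrial falls and a median of -0.0615. The mitochondrial to nuclear ratio of complex I, shRybp over control, was 0.799 to 0.892 with 1 library left out and 0.765 from geometric means. That of complex V was 0.783 to 1.197 and 1.065, so its direction was not fixed; the cause was not tested.

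The replicate numbers were fitted as a replicate block although nothing in the labels ties equal numbers together; the deviations of same-numbered libraries correlated at 0.119. It gave 11 nuclear rises and 21 nuclear falls, beside 44.2% of all genes called under the block, with all 18 calls of the fit without it among them.

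Of 696 values of named genes under these alternatives 33 changed sign, 0 of them of a called gene. Leaving out 1 library gave -0.083 to 0.058 for Atp5g3, -0.32 to 0.46 for Cox7a1, -0.092 to 0.081 for Cox7a2, -0.11 to 0.066 for Cox7b, -0.0041 to 0.093 for Cox8a, -0.060 to 0.029 for Sdha, -0.49 to 0.17 for mt-Atp6, -0.14 to 0.40 for mt-Atp8 and -0.37 to 0.0043 for mt-Nd1. With library totals, limma at pseudocounts 1 and 0.1, and quantile normalization, Atp5g3 was at 0.025, 0.0263, 0.0265 and 0.0297, Cox7a2 at 0.031, 0.0299, 0.0301 and 0.0038, Cox7b at 0.0151, 0.0169, 0.0170 and 0.028, and Sdha at 0.0227, 0.0232, 0.0233 and 0.0092. With upper quartile scaling Atp5g3 was at 0.0011 and Cox7a2 at 0.0076. Summed with its nuclear copy mt-Atp6 was at 0.15.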
